A study of Mus musculus with 6 samples.

Results

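The 6 genes described here are Nr4a1, Nr4a2, Nr4a3, Egr1, Egr2 and Egr3, the Nr4a nuclear receptors and the early growth response genes that lymphocytes switch on when their antigen receptor is engaged. They were taken by name, and all 6 have a column among the 16158 genes deposited for the skin of 6 mice. Single-cell transcriptomes had been made with a 10x Genomics 5' kit, which counts unique molecular identifiers (UMIs), each standing for 1 captured transcript.

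All 6 mice were of the NINJA strain, built for inducible expression of a neoantigen, were 6 to 12 weeks old, and gave a cell suspension from skin treated with 4-OH-Tam. The labels name the groups NO_AG, AG and AG_CPI, with 2 mice each, and the series text calls them Ag OFF, Ag ON and Ag ON/CPI. All 3 groups therefore carried the strain and the skin treatment. P14 CD8 T cells, which bear a transgenic receptor with a beta chain from the segment Trbv13-3, had been checked in each mouse by the submitters. A Trbv13-3 UMI marks such cells, but other T cells can use the segment too. The replicates are labelled biological. The p-values rest on the spread between these mice joined with the spread that genes share.

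Receptor engagement opens calcium, protein kinase C and MAP kinase pathways in a T cell, and the Nr4a and Egr genes are transcribed from them within minutes to hours. Nr4a1 (Nur77), Nr4a2 (Nurr1) and Nr4a3 (Nor1) bind DNA without a known ligand and are known in CD8 T cells for limiting effector function under repeated stimulation. Egr1 is a general immediate early gene of growth factor and stress signals in many cell types. Egr2 and Egr3 restrain T cell activation, and Egr2 also acts in the skin and hair follicle. Because tissue dissociation induces immediate early genes in any cell, keratinocytes were measured alongside the T cells.

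The sequence upstream of the start site is shown for the members whose start site matched an annotated protein-coding transcript and whose window held no annotated exon. For Egr2 this is 1 of several annotated start sites. The windows are from RefSeq on build GRCm38.p6, cover 150 bases, and read 5′ to 3′ on the strand of the gene. Capitals mark the cyclic AMP response core TGACG, the Egr site GCGNGGGCG and the CArG box bound by serum response factor, on either strand. The Nr4a3 window did not meet this rule, and no window was used for Egr1 or Egr3. Of the members shown, Nr4a2 passed the test between groups in CD8 T cells, and Nr4a1 and Egr2 did not.
Nr4a2, chr2:57124004-57124153, minus strand: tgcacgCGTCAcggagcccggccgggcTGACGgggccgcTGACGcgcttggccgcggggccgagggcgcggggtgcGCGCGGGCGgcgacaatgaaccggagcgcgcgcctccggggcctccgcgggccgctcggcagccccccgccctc
Nr4a1, chr15:101266696-101266845, plus strand: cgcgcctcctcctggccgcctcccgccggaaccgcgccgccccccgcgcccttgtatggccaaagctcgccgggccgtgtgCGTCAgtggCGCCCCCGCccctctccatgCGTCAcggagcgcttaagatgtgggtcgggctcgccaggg
Egr2, chr10:67537719-67537868, plus strand: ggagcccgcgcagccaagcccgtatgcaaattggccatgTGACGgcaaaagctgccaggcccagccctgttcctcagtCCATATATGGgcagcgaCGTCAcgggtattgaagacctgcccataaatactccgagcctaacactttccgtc
Over the full windows of 300 bases, Nr4a1, Nr4a2 and Nr4a3 each held 4 TGACG matches, which 20.8% of 32851 promoters contain at least once. Nr4a1 and Nr4a2 each held 1 Egr site, present in 5.55% of promoters. The window of this Egr2 start site held a CArG box, present in 1.63%, and none of the Nr4a windows did. The full cyclic AMP response element TGACGTCA and the Nr4a element AAAGGTCA were in none of these windows. These are matches of letters, not measured sites.

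Of 21178 deposited cells, 20464 were kept, with a median of 2527 to 4744 UMIs per cell across the mice. The NO_AG mice gave 113 and 370 CD8 T cells, the AG mice 974 and 767, and the AG_CPI mice 1118 and 1211. The summed level of 6 T cell receptor genes was 40.9 to 67.8 UMIs per 10000 in CD8 T cells and 0.403 to 2.47 in keratinocyte-like cells, while 21 keratinocyte markers had 4.19 to 8.78 in CD8 T cells against 501.6 to 685.4. Libraries shared 5 to 35 cell barcodes per pair. AG_CPI 1 stood apart: outside the T cell clusters 16.1% of its cells had a UMI of the Y-linked gene Ddx3y, and 0 had one in each other mouse, so each test was also run without it. In AG 2, 71.4% of keratinocyte-like cells lay in clusters held almost wholly by that mouse.

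In CD8 T cells, Nr4a2 was higher in mice with antigen than in mice without, and was the member that passed the test in both comparisons with NO_AG. Levels are mean UMIs per 10000 UMIs of a cell, and they were 0.961 and 0.552 in the NO_AG mice, 1.79 and 1.92 in the AG mice, and 1.77 and 2.16 in AG_CPI. All 4 mice with antigen lay above both NO_AG mice. The share of all genes that part the mice in such a way was not counted, here or for the genes below. The group means were 0.757 ± 0.289 (SD, n = 2) in NO_AG, 1.85 ± 0.0937 in AG and 1.96 ± 0.270 in AG_CPI. These rest on 25 and 67 Nr4a2 UMIs in the NO_AG mice and 500 to 808 in the others. The share of CD8 T cells with an Nr4a2 UMI was 15.9% (95% Wilson interval 10.3 to 23.8) and 9.73% (7.11 to 13.2) in NO_AG, against 23.7% (21.3 to 26.3) to 32.2% (29.0 to 35.6) in the other mice. The intervals cover counting error only. With every cell thinned to 1400 UMIs, the shares were 12.4% and 6.76% in NO_AG and 16.1% to 19.6% elsewhere.

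Nr4a2 rose by 1.35 on the log2 scale of the level plus 0.1 from NO_AG to AG (SE 0.226, limma adjusted p 0.00881). It was 1 of 6 members called, where 2.3% of 7246 genes were called (1.86% higher and 0.442% lower). From NO_AG to AG_CPI it rose by 1.41 (SE 0.226, limma adjusted p 0.00462), and 3.59% of genes were called (2.57% higher and 1.02% lower). These comparisons share the NO_AG mice. The first call was lost without the filter on low values (adjusted p 0.0857) and with cells gated on UMIs alone (0.0512). The second was lost without that filter (0.0545) and without AG_CPI replicate 2 (0.0864). Between AG_CPI and AG the difference was 0.06 (SE 0.226, limma adjusted p 0.999), and 0 of 6 members were called beside 0.0828% of genes.

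**Figure D1:**
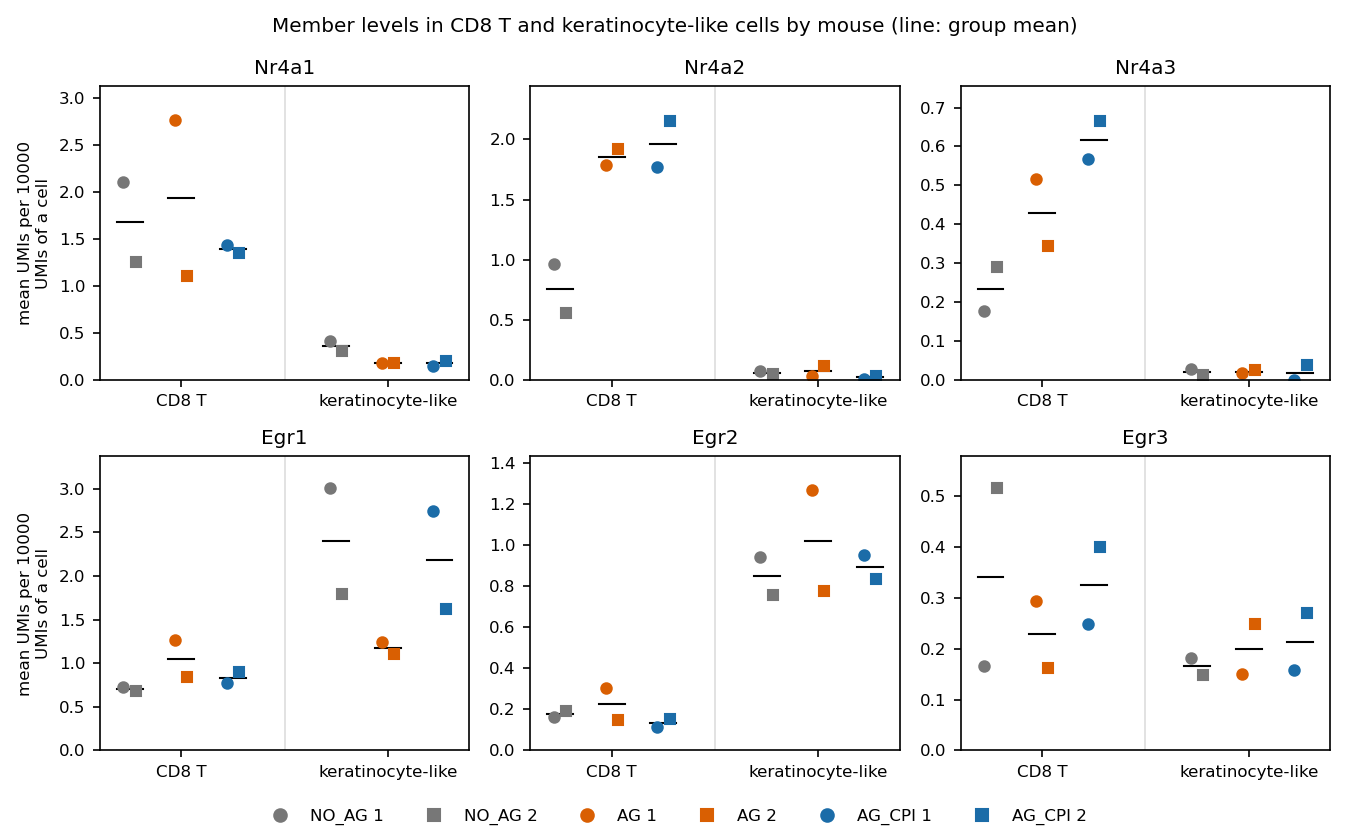
Mean level of each member (UMIs per 10000 UMIs of a cell) in CD8 T and keratinocyte-like cells, with 1 point per mouse, colour for the group, circle or square for replicate 1 or 2, and a line at the group mean. Nr4a2 in CD8 T cells lies between 0.552 and 0.961 in NO_AG and between 1.77 and 2.16 in the other mice, while Egr1 and Egr2 are mostly higher in keratinocyte-like cells.

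Nr4a3 ran in the same direction at a lower level. Its levels in CD8 T cells were 0.178 and 0.289 in the NO_AG mice, 0.517 and 0.343 in the AG mice, and 0.568 and 0.666 in AG_CPI. The 3 groups did not overlap, with AG between the others, an order whose share over all genes was not counted. Nr4a3 rose from NO_AG to AG_CPI by 1.20 on the log2 scale (SE 0.239, limma adjusted p 0.016), which made 2 of 6 members called in that comparison. The step from NO_AG to AG was 0.77 (SE 0.239) and did not pass the test (limma adjusted p 0.147). NO_AG 1 held 5 Nr4a3 UMIs, and the AG_CPI call was lost without NO_AG replicate 1 (adjusted p 0.106), without AG_CPI replicate 1 (0.140) or without AG_CPI replicate 2 (0.215). It was also lost in thinned cells (0.0631) and without the filter (0.0866).

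Nr4a1, the member most often read as a reporter of receptor signalling, did not separate the groups. Its levels in CD8 T cells were 2.11 and 1.26 in the NO_AG mice, 2.76 and 1.11 in the AG mice, and 1.43 and 1.35 in AG_CPI. The mice of NO_AG and those of AG differed more than the group means did, while those of AG_CPI differed less. AG 1 was highest and AG 2 lowest. The difference of AG from NO_AG was 0.23 (SE 0.34, limma adjusted p 0.786). AG 1 was also the highest mouse in Foxp3-negative CD4 T cells (3.75, the others 1.19 to 3.01) and in Foxp3-positive CD4 T cells (4.93, the others 1.63 to 2.19). AP-1 subunit Junb, on the dissociation list, was likewise highest in CD8 T cells of AG 1 (13.0) and lowest in AG 2 (3.96). Its part in the Nr4a1 values was not tested.

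The Egr genes were low in CD8 T cells and differed little between groups. Egr1 was at 0.723 and 0.676 in the NO_AG mice, 1.26 and 0.841 in the AG mice, and 0.774 and 0.896 in AG_CPI. Both NO_AG mice lay below the others, but the AG difference of 0.62 (SE 0.209) did not pass the test (limma adjusted p 0.181). Egr2 lay between 0.113 and 0.305 in the 6 mice and Egr3 between 0.163 and 0.516. The AG values of Egr2 spanned those of NO_AG, the AG_CPI mice lay just below NO_AG, and for Egr3 all groups overlapped. Neither passed the test in any of the 3 comparisons. The median log2 difference from NO_AG to AG was 0.45 over the 6 members and 0.04 over all 7246 genes.

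Other genes of receptor signalling were read from lists chosen for this purpose with earlier results of these data known. Their counts are therefore no independent support. In CD8 T cells, 13 of 28 tested receptor-induced genes rose from NO_AG to AG and 0 fell, with a median of 0.91 on the log2 scale against 0.04 over all genes. From NO_AG to AG_CPI 12 of 28 rose and 1 fell, with a median of 0.92 against 0.05. The gene that fell was Cd69, an early activation marker (-0.93, SE 0.189, limma adjusted p 0.0188), named after its value was seen. Those that rose in AG included the inhibitory receptors Lag3 (4.08, SE 0.179, limma adjusted p 1.744e-07) and Pdcd1 (3.43, SE 0.178), which encodes PD-1, and the chemokine gene Ccl4 (2.76, SE 0.191). Of 15 tested signalling genes, Nfatc1 (1.09, SE 0.207) and Cd3d (0.60, SE 0.132) rose. Nab2, which encodes a corepressor of Egr proteins, had a difference of -0.39 (SE 0.218) and was not called. Of 26 tested dissociation and serum response genes 0 were called from NO_AG to AG, beside 2.3% of all genes, and their median was -0.29. From NO_AG to AG_CPI 1 of 26 was called, beside 3.59% of all genes. It was Ier3, which rose by 1.35 (SE 0.312, limma adjusted p 0.0363), and the median was -0.25.

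Fos, an AP-1 subunit on that list, was read by mouse after its values were seen. Its levels in CD8 T cells were 7.53 and 2.52 in the NO_AG mice, 2.24 and 0.946 in the AG mice, and 1.05 and 1.89 in AG_CPI. Both NO_AG mice were above the others, and the AG difference of -1.39 (SE 0.46) did not pass the test (limma adjusted p 0.169). Within NO_AG and within AG_CPI, the mouse with more Fos also had more Nr4a2, and within AG it had less.

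In keratinocyte-like cells, Egr1 had levels of 3.0 and 1.79 in the NO_AG mice, 1.24 and 1.11 in the AG mice, and 2.75 and 1.62 in AG_CPI. Both AG mice lay below the other 4, and Egr1 was above its level in CD8 T cells in every mouse but AG 1, where the values were 1.24 and 1.26. Egr2 lay between 0.756 and 1.27 there and exceeded CD8 T cells in all 6 mice. Nr4a1 lay between 0.153 and 0.415, and Nr4a2 between 0.0082 and 0.115. Nr4a3 did not exceed 0.0375. Egr3 lay between 0.149 and 0.269.

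Nr4a2 and Nr4a3 failed the filter on low values in keratinocyte-like cells, and 0 of the other 4 members were called in any comparison. From NO_AG to AG, 0.622% of 7878 genes were called (0.533% higher and 0.0889% lower), and Egr1 differed by -0.92 (SE 0.313, limma adjusted p 0.327) and Nr4a1 by -0.70 (SE 0.205, adjusted p 0.258). From NO_AG to AG_CPI, 0.889% were called (0.559% higher and 0.33% lower). From AG to AG_CPI limma called 0 genes and 784 had an unadjusted p under 0.05. Of the dissociation list, 24 genes were tested in keratinocyte-like cells and Atf3, a stress-induced factor, was lower in AG than in NO_AG (-1.44, SE 0.21, limma adjusted p 0.0273). The list's median was -0.47 against -0.02 over all genes. From NO_AG to AG_CPI Atf3 was lower too (-1.90, SE 0.21, limma adjusted p 0.0147). The list's median there was -0.57 against -0.04 over all genes, while Egr1 differed by -0.11.

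The Egr genes were uneven within the keratinocyte-like cells. Egr2 was at 1.92 to 2.96 in cluster 15, led by Defb6, Sprr4 and Cst6, and at 0 to 0.120 in cluster 1, led by Serpinb2, Fcgbp and Ndufa4l2. Egr1 was also higher in cluster 15 than in cluster 1 in each mouse, for example 5.15 against 1.74 in NO_AG 1 and 1.72 against 0.645 in AG 1. Cluster 1 held only 16 cells in AG 2 and 9 in each AG_CPI mouse, so its values there are uncertain. In cluster 15, Egr1 was 5.15 and 3.08 in the NO_AG mice, 1.72 and 1.23 in the AG mice, and 2.75 and 3.05 in AG_CPI. In cluster 12, led by Krt10, Krt77 and Krt1, the groups overlapped: Egr1 was 1.15 and 1.04 for NO_AG, 0.534 and 1.36 for AG, and 2.05 and 1.10 for AG_CPI. Cluster 12 held only 21 cells in AG 2 and 25 and 28 in the AG_CPI mice.

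The difference between CD8 T and keratinocyte-like cells of the same mouse was compared next. Nr4a2 and Nr4a3 lay near or under the added 0.1 in keratinocyte-like cells, so for them this difference mostly repeats the CD8 T values and is no control for handling. Nr4a2 gained 1.31 on the log2 scale from NO_AG to AG relative to keratinocyte-like cells (SE 0.29, limma adjusted p 0.0496), and Egr1 gained 1.54 (SE 0.304, adjusted p 0.0297). These were 2 of 6 members called, beside 1.29% of 8975 genes (0.713% higher and 0.579% lower). The Egr1 value joins a difference of 0.62 in CD8 T cells to one of -0.92 in keratinocyte-like cells, and neither passed alone. The Nr4a2 call was lost in 14 of 18 alternatives and the Egr1 call in 6 of 18, each with the same direction. From NO_AG to AG_CPI, Nr4a2 gained 1.82 (SE 0.29, limma adjusted p 0.0054) and was 1 of 6 members called beside 3.44% of genes (1.99% higher and 1.45% lower). That call was lost without NO_AG replicate 2, without either AG_CPI mouse, without the filter and at Leiden resolution 0.5 (adjusted p 0.0612 to 0.0832). Genes of the dissociation list were called in the same direction: 3 of 26 for AG (Jun 1.83, Ier3 1.66 and Jund 0.92) and 5 of 26 for AG_CPI, with list medians of 0.14 and 0.29 against 0.03 and 0.07 over all genes. Their part in the Nr4a2 and Egr1 values was not tested. Nr4a1 passed for AG when AG replicate 2 was left out (1.51, adjusted p 0.0299). Nr4a3 differed by 1.24 from NO_AG to AG_CPI (SE 0.332, limma adjusted p 0.066), and passed with a pseudocount of 0.5 (0.0273) and without AG replicate 1 (0.041) or AG replicate 2 (0.0423). From AG to AG_CPI 0 of 6 members were called beside 0.0111% of genes.

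Transcripts from lysed keratinocytes would add to the levels in CD8 T cells. The 21 keratinocyte markers reached 0.708% to 1.56% of their keratinocyte-like level in CD8 T cells. At that proportion the keratinocyte-like level of Egr1 corresponds to 0.0118 to 0.0443 UMIs per 10000 in CD8 T cells, where 0.676 to 1.26 was measured. For Nr4a2 it corresponds to at most 0.0018. Transcripts from other lysed cells were not estimated, and the part of such transcripts in the CD8 T values was not tested.

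Within CD8 T cells, Nr4a2 was next compared between cells with a Trbv13-3 UMI and cells with a UMI of another beta segment only. Cells with no beta segment UMI, 36 to 331 per mouse, were in neither class and may include cells that make Trbv13-3. Of all CD8 T cells, 1.77% and 3.24% had a Trbv13-3 UMI in NO_AG. The share was 48.6% and 60.0% in the AG mice and 58.2% and 67.5% in the AG_CPI mice. Keratinocyte-like cells do not make the segment, and 0 to 5.68% of them had a UMI of it, at median depths of 2614 to 7072 UMIs against 2281 to 2913 in CD8 T cells. Nr4a2 levels in Trbv13-3 cells were 2.73 and 2.30 for the AG mice and 1.91 and 2.24 for the AG_CPI mice. In CD8 T cells with another beta segment they were 0.631 and 0.506 in the NO_AG mice, 0.546 and 1.26 in the AG mice, and 2.05 and 2.55 in AG_CPI. In both AG mice the Trbv13-3 cells were higher, and in both AG_CPI mice they were slightly lower. The classes also lay in different clusters of CD8 T cells: cluster 21, low in Nr4a2, held 321 of 365 cells with another segment in AG 1 and 65 of 126 in AG 2, but 18 of 136 and 24 of 195 in AG_CPI. Of Trbv13-3 cells it held 11 of 473 and 10 of 460 in AG. Within clusters of AG 2, Trbv13-3 against other cells had 0.783 and 0.936 in cluster 21, 2.07 and 1.91 in cluster 22, and 1.49 and 0.860 in cluster 25. In AG 1 they had 0.858 and 0.422 in cluster 21 and 2.23 and 0.808 in cluster 25. The order was mixed in AG_CPI. AG_CPI 1 had 0.560 and 0.850 in cluster 21 and 1.93 and 2.43 in cluster 22. It had 1.23 and 1.36 in cluster 25 and 3.56 and 2.29 in cluster 36. AG_CPI 2 had 1.55 and 1.42 in cluster 21 and 2.28 and 1.74 in cluster 22. It had 0.932 and 2.22 in cluster 25 and 4.17 and 3.97 in cluster 36. The part of the clusters in the difference between segments was not tested.

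Over the 4 mice together the gain in Trbv13-3 cells was 0.69 on the log2 scale (SE 0.316) and did not pass the test with the mouse as a block (limma adjusted p 0.675). There 0 of 6 members were called, beside 0.439% of 7283 genes. The gain differed between the groups by -1.61 from AG to AG_CPI (SE 0.261, limma adjusted p 8.713e-05), in a test added after the data were seen. It called 5.18% of genes, and Nr4a2 alone among the 6 members. The difference was -0.98 without AG replicate 1 and -2.25 without AG replicate 2, both still called, and -1.57 without AG_CPI replicate 2 and not called (adjusted p 0.193). Without the filter on low values it was not called either (0.0645).

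**Figure D2:**
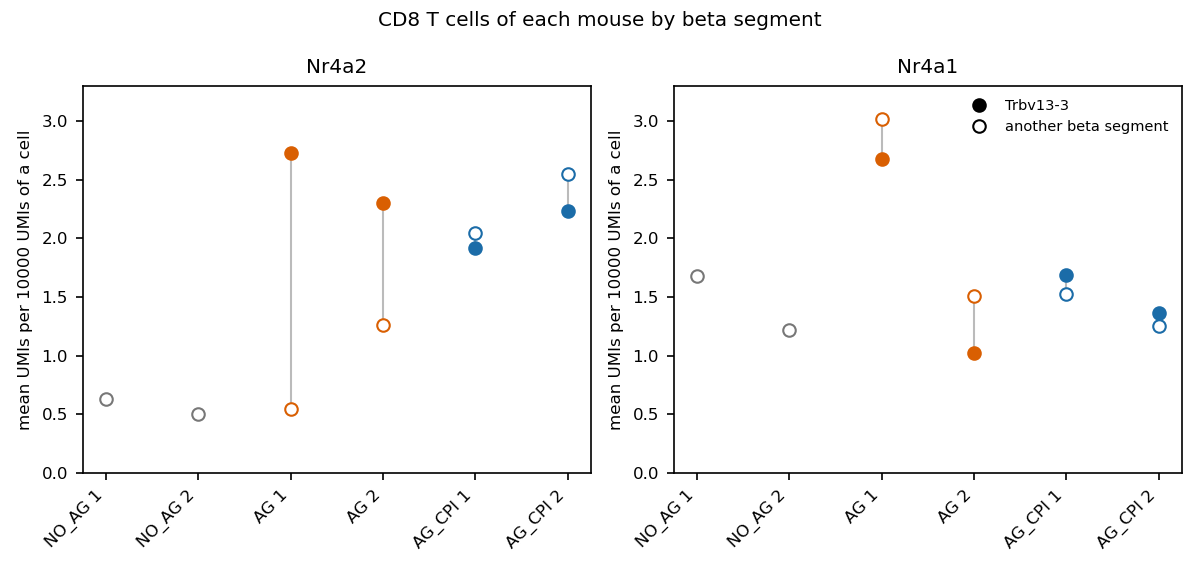
Levels of Nr4a2 and Nr4a1 (UMIs per 10000 UMIs of a cell) in CD8 T cells with a Trbv13-3 UMI (filled) and with another beta segment (open), joined by a line within each mouse; NO_AG is shown for the open class only. Nr4a2 differs between the classes in AG 1 (2.73 and 0.546) and AG 2 (2.30 and 1.26), and lies near 2 in both classes of the AG_CPI mice.

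Among the cells with another beta segment, Nr4a2 rose from AG to AG_CPI by 1.32 (SE 0.291, limma adjusted p 0.015), as 1 of 6 members called beside 1.45% of 6610 genes (0.787% higher and 0.666% lower). The call was lost in thinned cells (adjusted p 0.229), without AG replicate 1 (0.82, adjusted p 0.365), and without AG_CPI replicate 1 (0.188) or AG_CPI replicate 2 (0.217). From NO_AG to AG the difference was 0.57 (SE 0.291, limma adjusted p 0.732), with 0 of 6 members called beside 0.348% (0.333% higher). Among Trbv13-3 cells, Nr4a2 differed by -0.31 from AG to AG_CPI (SE 0.175, limma adjusted p 0.525), with 0 of 6 called beside 0.985% of 7002 genes (0.571% higher and 0.414% lower). Without AG replicate 2, Egr2 (-1.08) and Nr4a1 (-0.82) passed there, and without AG replicate 1, Egr3 did (0.92).

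The receptor-induced list differed in these cells as well. In cells with another beta segment 9 of 27 tested genes rose from AG to AG_CPI and 3 fell, with a median of 0.87 against -0.02 over all genes. Of all 6610 genes tested there, 0.787% were called higher and 0.666% lower. Pdcd1 rose by 3.07 (SE 0.402), Lag3 by 2.42 (SE 0.34) and Tnfrsf9, which encodes 4-1BB, by 1.80 (SE 0.281). The cytokine gene Il2 fell by 2.86 (SE 0.48). In Trbv13-3 cells 0 of 27 rose and 4 fell, among them Ccl3 (-1.96, SE 0.292) and Ccl4 (-1.18, SE 0.18). Of all 7002 genes tested there, 0.571% were called higher and 0.414% lower. Of the dissociation list, 0 of 24 genes were called in Trbv13-3 cells and 0 of 25 in cells with another segment. Its median was 0.36 in Trbv13-3 cells, where 19 of 24 differences were positive, and -0.16 in the others, where 5 of 25 were.

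For no other member did the difference in gain pass the test. Nr4a1 was higher in cells with another beta segment in both AG mice, at 3.02 and 1.51 against 2.67 and 1.02 in Trbv13-3 cells. In AG_CPI it was 1.52 and 1.25 against 1.69 and 1.36. Nr4a3 was 0.35 and 0.32 in cells with another segment of AG mice, and 0.710 and 0.324 in their Trbv13-3 cells. In AG_CPI it was 0.676 and 0.600 against 0.568 and 0.669 in Trbv13-3 cells. Its classes thus differed in AG 1 and were about equal in AG 2. The Nr4a1 gain differed between the groups by 0.47 (SE 0.211, limma adjusted p 0.245), and that of Nr4a3 by -0.46 (SE 0.319, adjusted p 0.538).

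CD8 T cells fell into clusters, made without the members, that differed in Nr4a2. In cluster 36, led by Ccl5, Gimap7 and Gzmk, the level was 3.15 to 4.01 in the 4 mice with antigen. In cluster 22, led by Gzma, Ccl1 and Gzmf, it was 1.73 to 2.46 in those mice, and 2.82 in NO_AG 2, which had 12 such cells. In cluster 21, led by Cd40lg and Cxcr3, it was 0.465 to 1.21 over all 6 mice, and the groups overlapped. Cluster 25, led by Gzma, Gzmk and Ccl1, had 0.377 and 0.486 in the NO_AG mice, 2.04 and 1.27 in the AG mice, and 1.02 and 1.19 in AG_CPI.

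The make-up of the CD8 T cells moved with these levels. Cluster 21 held 77.9% and 79.7% of CD8 T cells in the NO_AG mice, 40.1% and 14.5% in the AG mice, and 4.65% and 5.45% in AG_CPI. Cluster 22 held at most 3.24% in the NO_AG mice, 29.3% and 15.5% in the AG mice, and 65.5% and 69.2% in AG_CPI. Cluster 36 held at most 3.54% in NO_AG and 11.1% to 35.3% elsewhere. In cells with another beta segment, Nr4a2 within cluster 21 was 0.422 and 0.936 for AG and 0.850 and 1.42 for AG_CPI. Within cluster 25 it was 0.808 and 0.860 in AG, and 1.36 and 2.22 in AG_CPI. Those AG_CPI values rest on 12 to 32 cells. Within cluster 22, the largest of AG_CPI, such cells had 1.91 in AG 2 and 2.43 and 1.74 in the AG_CPI mice, which lay on both sides of it. Their part in the group difference was not tested.

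**Figure D3:**
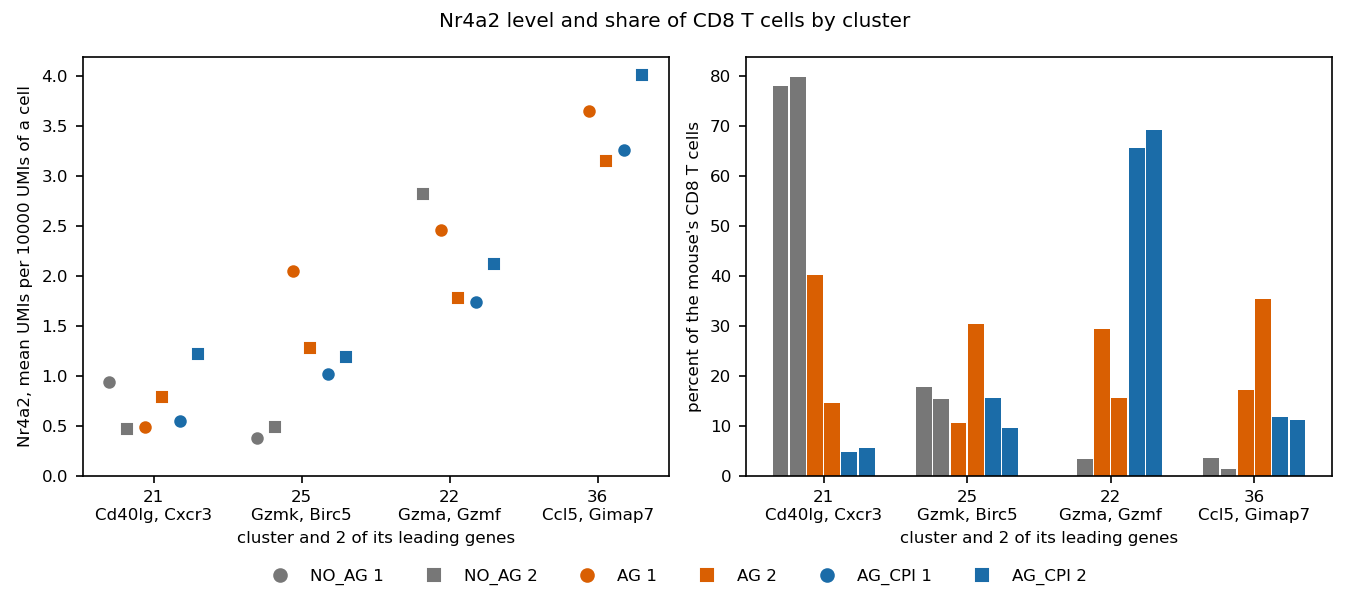
Left, Nr4a2 level (UMIs per 10000 UMIs of a cell) in 4 clusters of CD8 T cells for each mouse with at least 10 cells; right, bars from 0 for the percent of the mouse's CD8 T cells in that cluster. Cluster 36 has the highest Nr4a2 levels, 3.15 to 4.01, and cluster 21, which holds 77.9% and 79.7% of CD8 T cells in NO_AG, stays at or below 1.21; clusters 30 and 40, at most 3.13% of a mouse's CD8 T cells, are not drawn.

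In cluster 22 of NO_AG 2, the 12 cells had 5.56 UMIs per 10000 of Nr4a1, 3.51 of Egr3, 1.89 of Nr4a3, 1.59 of Egr2 and 0.871 of Egr1. The Egr3 value rests on 8 UMIs in 2 of the 12 cells. In the 4 mice with antigen the same cluster had 1.07 to 2.47 of Nr4a1, 0.188 to 0.545 of Egr3 and 0.666 to 1.04 of Egr1. This small set was noticed after its values were seen.

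Across the other cell classes Nr4a2 was not limited to CD8 T cells of mice with antigen. T cells of clusters with more Trdc than Trac, the constant segments of the delta and alpha chains, had an Nr4a2 level of 2.02 and 1.21 in NO_AG, 1.18 and 1.55 in AG, and 1.51 in AG_CPI 2. AG_CPI 1 had 6 such cells and was not measured. These cells thus held Nr4a2 in NO_AG mice above the level of CD8 T cells there. Their Nr4a1 was low, 0.218 to 0.465, the reverse of CD4 T cells, which had more Nr4a1 than Nr4a2 in each mouse measured. A cluster led by Ccr6, Il13 and Il17a had 1.49 to 3.96 of Nr4a1 and 0.0863 to 0.451 of Nr4a2.

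In Foxp3-negative CD4 T cells, Nr4a1 was 3.01 and 2.53 in the NO_AG mice, 3.75 and 1.19 in the AG mice, and 1.25 and 1.45 in AG_CPI. Each mouse gave 21 to 97 such cells. Of 4 members tested 0 were called from NO_AG to AG, where limma called 0 of 3193 genes and 238 had an unadjusted p under 0.05. In Foxp3-positive CD4 T cells, the regulatory type, Nr4a2 was 0 in NO_AG 2, 0.671 and 0.391 in AG and 1.36 in AG_CPI 2. Nr4a3 was also 0 in NO_AG 2, 0.627 and 0.160 in AG and 2.12 in AG_CPI 2, and Nr4a1 was 1.63 there against 4.93 and 1.90 in AG. The planned test called 3 of 3 members tested beside 18.5% of 1984 genes (17.0% higher), and no result is drawn from it. Its NO_AG arm was 1 mouse with 10 cells, and Nr4a2 and Nr4a3 passed the filter only through the mice in which they are high. All 3 calls were lost without the filter (limma adjusted p 0.113 to 0.270), Nr4a3 also with a pseudocount of 0.5 (0.0871), and Nr4a1 with the deposited scaling (0.162) and stricter cell filters (0.115). With 0 Nr4a2 UMIs in 10 cells, no fold is given.

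**Figure D4:**
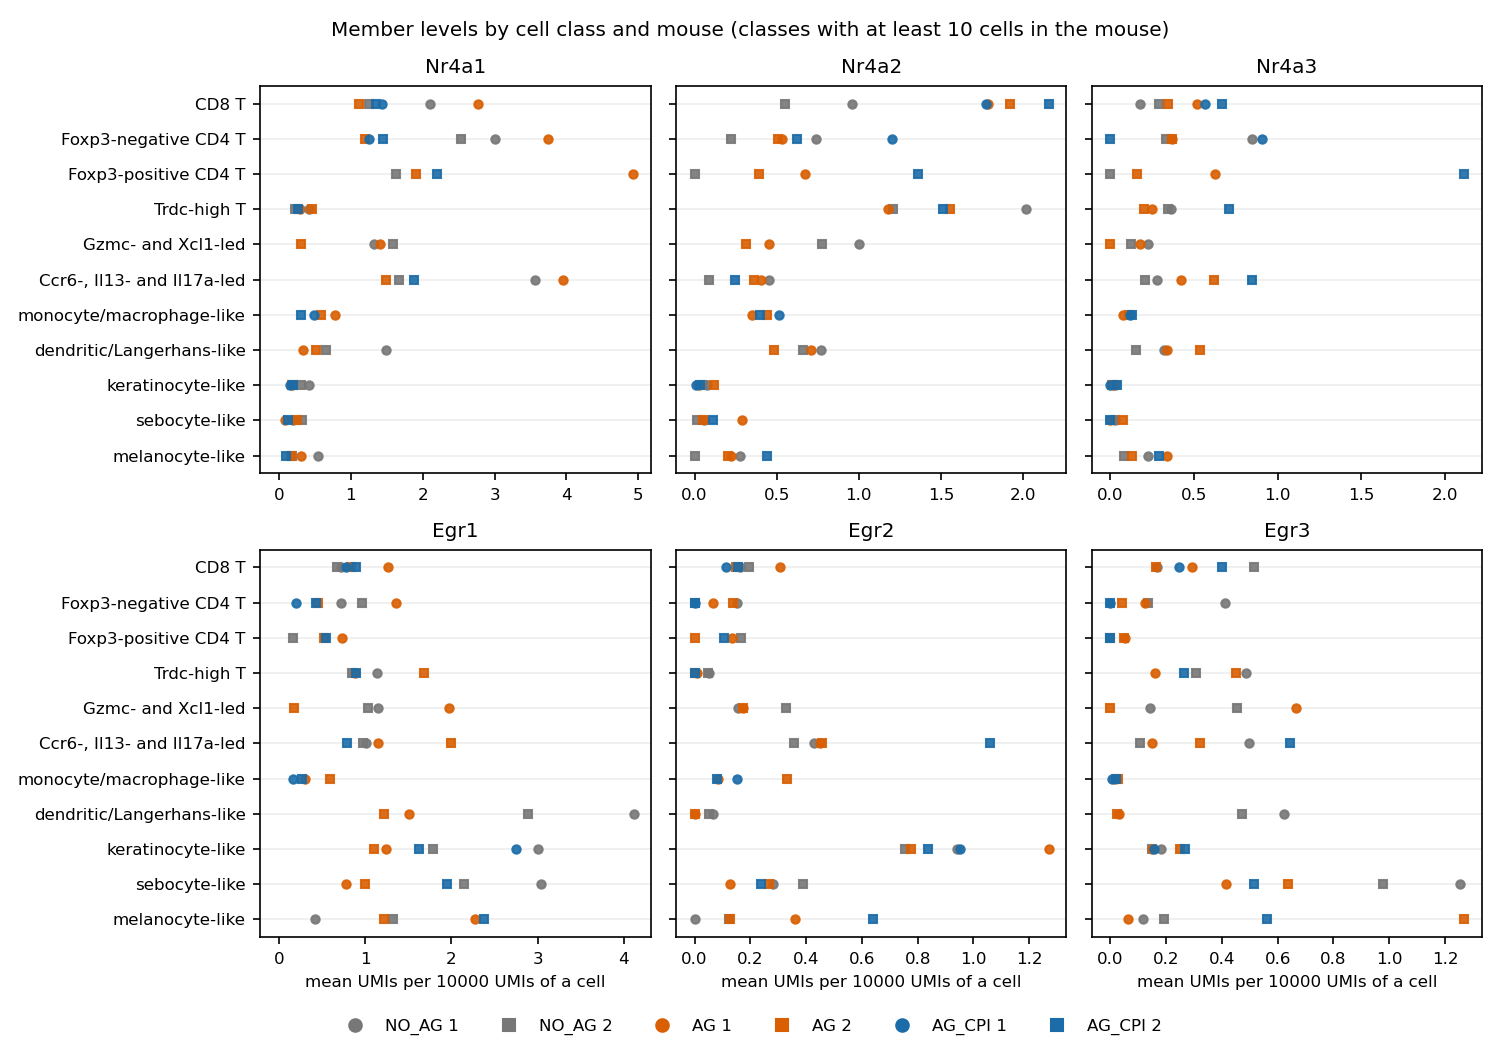
Mean level of each member (UMIs per 10000 UMIs of a cell, x axis) in the cell classes (rows) with 1 point per mouse that had at least 10 cells of the class; colours give the group and shapes the replicate. Nr4a2 is at 1.18 to 2.02 in Trdc-high T cells, where Nr4a1 is at 0.218 to 0.465, whereas Egr1 and Egr2 are at 1.11 or more and 0.756 or more in keratinocyte-like cells.

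Egr1 was 4.11 and 2.89 in dendritic/Langerhans-like cells of NO_AG, against 1.51 and 1.22 in AG, and AG_CPI had no such cells. Sebocyte-like cells had an Egr1 level of 3.04 and 2.14 in NO_AG, 0.779 and 0.994 in AG, and 1.95 in AG_CPI 2. In endothelial-like cells Egr1 was 1.16 and 3.23 for NO_AG and 0.846 in AG 2. Egr1 in melanocyte-like cells was 0.417 and 1.32 for NO_AG, 2.27 and 1.21 for AG and 2.38 in AG_CPI 2, and in fibroblast-like cells it was 5.99 in NO_AG 1 and 6.98 in AG 1. Egr3 in sebocyte-like cells was 1.25 and 0.979 in NO_AG and 0.415 to 0.636 in the other 3 mice measured. No test was made in these classes.

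Members were also counted together in single cells, after thinning to 1400 UMIs. The share of CD8 T cells with at least 1 Nr4a UMI was 32.7% and 19.5% for NO_AG, 37.4% and 29.99% in the AG mice, and 27.8% and 31.8% in AG_CPI. The same share was, in keratinocyte-like cells, 2.58% to 5.64%, while 23.8% to 35.5% had an Egr UMI. Both families were seen in 4.60% to 10.5% of CD8 T cells, above the 2.58% to 6.41% that the product of the single shares gives. The same held in keratinocyte-like cells of all 6 mice, with 1.23% to 3.76% against 0.797% to 1.87%. At this depth a missing UMI does not show that a cell lacks the transcript.

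The genes whose levels ran most like each member were named by Pearson correlation of log2 levels over 46 mouse and class means, which share libraries and depth. For Nr4a2 these were Gpr171 (r = 0.88), Cd48 (0.85) and Wipf1 (0.84), for Nr4a1 Crlf3 (0.89), Stk10 (0.89) and Nfkbid (0.88), and for Egr2 Aqp3 (0.78), Ppp1r14b (0.77) and Gltp (0.75). Egr1 was less closely followed, by Fyttd1 (0.68), and Egr3 by the mitochondrial gene mt-Nd2 (0.69). Nr4a1 and Nr4a2 correlated at 0.51 with each other, and Nr4a2 and Egr2 at -0.49. Only means over at least 30 cells entered, and among these Nr4a3 stayed below the level of 1 required.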

How the data were processed

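The authors deposited log10 values: per the values themselves, each is log10 of 1 plus a gene's UMIs per 10000 UMIs of the cell, since 100% fall on whole UMIs (tolerance 0.05) after inversion. The submitters' processing notes name Cell Ranger 3.1 and build mm10. Cells needed 200 genes and at most 20% mitochondrial UMIs, and 663 were removed as doublets by Scrublet. Clustering (scanpy 1.11.5, Leiden resolution 1) left out the members and the dissociation list. The CD8 T class held alpha-beta T cluster cells with a Cd8a or Cd8b1 UMI and none of Cd4.

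The members and lists were chosen with earlier results of these data known. Cluster naming went through 3 versions after leading genes and cell numbers were seen. The last leaves clusters with more Trdc than Trac out of alpha-beta T and drops a rule on ties that had removed large T clusters. Keratinocyte clusters with at least 9 cells in every mouse were matched as an alternative, and 9 was chosen after the numbers were seen, to keep cluster 1. The Foxp3-positive test was planned, left out after its result was seen, and restored because the design had fixed it. The test of the difference between groups in the beta segment gain, the checks of keratinocyte transcripts and libraries, and the length of the promoter windows were also chosen after data were seen. Tests used limma 3.58.1 (limma-trend) in R 4.3.3.

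For each mouse and class with 10 cells, linear values were averaged, scaled by trimmed means (TMM) and put on log2 after adding 0.1. Genes needed 10 UMIs and a mean of 0.1 in 2 libraries. The 3 groups shared a fit with group as its term. A call is a Benjamini-Hochberg adjusted p under 0.05, adjusted over all genes tested. The smallest exact permutation p for 2 against 2 mice is 0.333, so a call leans on the spread that genes share. In simulated data for AG against NO_AG in CD8 T cells, 90% of 4-fold and 44.8% of 2-fold changes were recovered among 7116 to 7220 genes. Named genes were the members, up to 8 called genes per list by smallest p, and the 3 genes most like each member. Fos, Junb, Nab2 and Cd69 were named outside that rule after their values were seen.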

Additional observations from a re-analysis of the deposited data

Results flagged for a closer look

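The gain of Nr4a2 in Trbv13-3 over other CD8 T cells differed between AG_CPI and AG by -1.61 on the log2 scale (interaction, limma adjusted p 8.713e-05). Leaving out 1 mouse moved this value between -2.25 and -0.98, and without the filter on low values it was not called (limma adjusted p 0.0645). Trbv13-3 cells were higher in 2 of 2 AG mice, but the segment classes also lay in different clusters of CD8 T cells, and in cluster 21 of AG 2 they were lower (0.783 against 0.936). The difference between groups also differed between CD8 T and keratinocyte-like cells in 3 cases. From NO_AG to AG it was 1.54 for Egr1 and 1.31 for Nr4a2, and from NO_AG to AG_CPI it was 1.82 for Nr4a2. Each call was lost in some alternatives: Egr1 in 6 of 18, Nr4a2 in 14 of 18 for AG and in 5 of 18 for AG_CPI. Nr4a2 was under the filter on low values in keratinocyte-like cells, so its values there mostly repeat those of CD8 T cells. Groups of 2 mice are too small for a test of single outlying mice.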

How the results depend on the processing

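The gain of Nr4a2 in CD8 T cells from NO_AG to AG kept its direction in 17 of 17 alternatives and its call in 15, and from NO_AG to AG_CPI it kept its direction in 17 and its call in 15. Depth limits Egr2, Egr3 and Nr4a3 most, with 5 or 6 UMIs each in CD8 T cells of NO_AG 1. Fits that leave out 1 mouse assume that the lone mouse varies like the others. The replicate numbers do not pair the mice (correlations of deviations in CD8 T cells -0.11, 0.01 and -0.23), and the replicate block changed the call of no member. 

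At Leiden resolution 0.5, the number of genes called was 28 for CD8 less keratinocyte AG vs NO_AG, 0 for CD8 less keratinocyte AG_CPI vs AG, 99 for CD8 less keratinocyte AG_CPI vs NO_AG, 4 for Foxp3-negative AG vs NO_AG, 25 for keratinocyte AG vs NO_AG, 19 for keratinocyte AG_CPI vs NO_AG, and the uncalled log2 difference changed sign to -0.79 for CD8 less keratinocyte AG vs NO_AG Egr2, 0.05 for other-segment CD8 AG vs NO_AG Egr2, 0.33 for keratinocyte AG_CPI vs AG Egr2, -0.07 for keratinocyte AG_CPI vs AG Egr3, 0.33 for keratinocyte AG_CPI vs AG Nr4a1. With cells held to 500 genes and 10% mitochondrial UMIs, the number of genes called was 0 for CD8 less keratinocyte AG_CPI vs AG, 4 for Foxp3-negative AG vs NO_AG, and the uncalled log2 difference changed sign to 0.01 for CD8 less keratinocyte AG_CPI vs NO_AG Egr3, -0.06 for keratinocyte AG_CPI vs AG Egr3, -0.11 for keratinocyte AG_CPI vs NO_AG Egr2. With cells with a Trdc UMI left out, the number of genes called was 2 for CD8 less keratinocyte AG_CPI vs AG, and the uncalled log2 difference changed sign to -0.03 for CD8 less keratinocyte AG vs NO_AG Egr2. With cluster-matched keratinocytes (added after the data were seen), the number of genes called was 8 for CD8 less keratinocyte AG_CPI vs AG, 1 for keratinocyte AG_CPI vs AG, and the uncalled log2 difference changed sign to 0.28 for CD8 less keratinocyte AG_CPI vs NO_AG Egr2, -0.07 for keratinocyte AG vs NO_AG Egr2, -0.46 for keratinocyte AG_CPI vs NO_AG Egr2. With the deposited scaling alone, the uncalled log2 difference changed sign to -0.02 for CD8 less keratinocyte AG vs NO_AG Egr2, -0.07 for Foxp3-negative AG vs NO_AG Egr1. With doublets kept, the number of genes called was 5 for Foxp3-negative AG vs NO_AG, 113 for keratinocyte AG_CPI vs NO_AG, and the uncalled log2 difference changed sign to -0.06 for CD8 less keratinocyte AG vs NO_AG Egr2, 0.15 for keratinocyte AG_CPI vs AG Nr4a1. With the gate on UMIs alone, the number of genes called was 14 for CD8 less keratinocyte AG vs NO_AG, 0 for CD8 less keratinocyte AG_CPI vs AG, 102 for CD8 less keratinocyte AG_CPI vs NO_AG, 32 for Trbv13-3 CD8 AG_CPI vs AG, 14 for other-segment CD8 AG vs NO_AG, 79 for CD8 AG vs NO_AG, 1 for CD8 AG_CPI vs AG. With the members and dissociation list among the clustering genes, the number of genes called was 4 for Foxp3-negative AG vs NO_AG, and the uncalled log2 difference changed sign to 0.04 for other-segment CD8 AG vs NO_AG Egr2, 0.03 for keratinocyte AG_CPI vs AG Nr4a1. With no filter on low values, the number of genes called was 1 for CD8 less keratinocyte AG vs NO_AG, 0 for CD8 less keratinocyte AG_CPI vs AG, 18 for CD8 less keratinocyte AG_CPI vs NO_AG, 135 for the beta segment difference between groups, 17 for Trbv13-3 against other cells, 18 for Trbv13-3 CD8 AG_CPI vs AG, 13 for other-segment CD8 AG vs NO_AG, 37 for CD8 AG vs NO_AG, 1 for CD8 AG_CPI vs AG, 108 for CD8 AG_CPI vs NO_AG, 21 for Foxp3-positive AG vs NO_AG, 0 for keratinocyte AG vs NO_AG, 0 for keratinocyte AG_CPI vs NO_AG. With a pseudocount of 0.5, the number of genes called was 2 for CD8 less keratinocyte AG_CPI vs AG, 12 for CD8 AG_CPI vs AG, 5 for Foxp3-negative AG vs NO_AG, and the uncalled log2 difference changed sign to -0.04 for CD8 less keratinocyte AG vs NO_AG Egr2. With a replicate block, the number of genes called was 150 for Trbv13-3 CD8 AG_CPI vs AG, 19 for CD8 AG_CPI vs AG, 14 for Foxp3-negative AG vs NO_AG, 114 for keratinocyte AG_CPI vs NO_AG. In cells thinned to 1400 UMIs, the number of genes called was 59 for CD8 less keratinocyte AG vs NO_AG, 169 for CD8 less keratinocyte AG_CPI vs NO_AG, 210 for the beta segment difference between groups, 1 for other-segment CD8 AG vs NO_AG, 32 for other-segment CD8 AG_CPI vs AG, 101 for CD8 AG vs NO_AG, 1 for CD8 AG_CPI vs AG, 214 for Foxp3-positive AG vs NO_AG, 28 for keratinocyte AG vs NO_AG, and the uncalled log2 difference changed sign to 0.47 for CD8 less keratinocyte AG_CPI vs NO_AG Egr2, -0.10 for Trbv13-3 against other cells Nr4a3, 0.57 for CD8 AG_CPI vs NO_AG Egr2.

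Leaving out 1 mouse at a time, the number of genes called ranged from 36 to 448 for CD8 less keratinocyte AG vs NO_AG, from 0 to 61 for CD8 less keratinocyte AG_CPI vs AG, from 44 to 494 for CD8 less keratinocyte AG_CPI vs NO_AG, from 55 to 379 for the beta segment difference between groups, from 16 to 29 for Trbv13-3 against other cells, from 34 to 348 for Trbv13-3 CD8 AG_CPI vs AG, from 0 to 30 for other-segment CD8 AG vs NO_AG, from 22 to 99 for other-segment CD8 AG_CPI vs AG, from 71 to 530 for CD8 AG vs NO_AG, from 1 to 20 for CD8 AG_CPI vs AG, from 67 to 607 for CD8 AG_CPI vs NO_AG, from 0 to 10 for Foxp3-negative AG vs NO_AG, from 14 to 363 for keratinocyte AG vs NO_AG, from 0 to 7 for keratinocyte AG_CPI vs AG, from 2 to 389 for keratinocyte AG_CPI vs NO_AG. Over the same fits, these log2 differences, uncalled with all mice, changed sign, CD8 less keratinocyte AG vs NO_AG Egr2 from -0.19 to 0.29, CD8 less keratinocyte AG vs NO_AG Egr3 from -1.10 to 0.29, CD8 less keratinocyte AG_CPI vs AG Egr3 from -0.21 to 0.79, CD8 less keratinocyte AG_CPI vs AG Nr4a1 from -0.90 to 0.26, CD8 less keratinocyte AG_CPI vs NO_AG Egr1 from -0.01 to 0.87, CD8 less keratinocyte AG_CPI vs NO_AG Egr3 from -0.81 to 0.57, the beta segment difference between groups Egr2 from -1.03 to 0.17, Trbv13-3 against other cells Egr2 from -0.04 to 0.42, Trbv13-3 against other cells Nr4a1 from -0.18 to 0.03, Trbv13-3 CD8 AG_CPI vs AG Egr1 from -0.47 to 0.21, Trbv13-3 CD8 AG_CPI vs AG Egr2 from -1.08 to 0.05, Trbv13-3 CD8 AG_CPI vs AG Egr3 from -0.07 to 0.92, Trbv13-3 CD8 AG_CPI vs AG Nr4a1 from -0.82 to 0.50, Trbv13-3 CD8 AG_CPI vs AG Nr4a3 from -0.21 to 0.73, other-segment CD8 AG vs NO_AG Egr2 from -0.08 to 0.16, other-segment CD8 AG vs NO_AG Egr3 from -0.77 to 1.19, other-segment CD8 AG_CPI vs AG Egr2 from -0.53 to 0.36, other-segment CD8 AG_CPI vs AG Egr3 from -0.30 to 0.03, CD8 AG vs NO_AG Egr2 from -0.08 to 0.64, CD8 AG vs NO_AG Egr3 from -0.84 to 0.34, CD8 AG vs NO_AG Nr4a1 from -0.40 to 0.85, CD8 AG_CPI vs AG Nr4a1 from -0.96 to 0.29, CD8 AG_CPI vs AG Nr4a2 from -0.07 to 0.18, CD8 AG_CPI vs NO_AG Egr3 from -0.48 to 0.70, CD8 AG_CPI vs NO_AG Nr4a1 from -0.48 to 0.23, Foxp3-negative AG vs NO_AG Egr1 from -0.14 to 0.21, Foxp3-negative AG vs NO_AG Nr4a1 from -1.03 to 0.54, Foxp3-negative AG vs NO_AG Nr4a2 from -0.36 to 1.05, Foxp3-negative AG vs NO_AG Nr4a3 from -0.93 to 0.23, keratinocyte AG vs NO_AG Egr2 from -0.16 to 0.59, keratinocyte AG vs NO_AG Egr3 from -0.05 to 0.35, keratinocyte AG_CPI vs AG Egr2 from -0.51 to 0.24, keratinocyte AG_CPI vs AG Egr3 from -0.19 to 0.34, keratinocyte AG_CPI vs AG Nr4a1 from -0.14 to 0.10, keratinocyte AG_CPI vs NO_AG Egr1 from -0.49 to 0.28, keratinocyte AG_CPI vs NO_AG Egr2 from -0.07 to 0.26, keratinocyte AG_CPI vs NO_AG Egr3 from -0.04 to 0.50. Where a count moved, the cause was not tested.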
